A study of Mus musculus with 11 samples.

Results

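The collagen chain genes were taken as every probe set whose only gene symbol consists of Col, a number, the letter a and a number. In all, 46 probe sets met this rule. Col6a5 and Col6a6 have 2 probe sets each, of which the one with the higher mean over the 11 arrays was kept, and this left 44 chains of the 19938 genes measured. Expression was measured on Mouse Gene 1.0 ST arrays (Affymetrix) in fibroblasts sorted from mammary tissue of female mice as CD140a+ cells without the Adgre1 product, a macrophage antigen, to which the sample labels add EpCAM-. There were 2 arrays of normal glands from FVB/n mice aged 8 weeks, and MMTV-PyMT mice gave 3 arrays of hyperplasia at 4 weeks, 3 of carcinoma at 9 weeks and 3 of advanced carcinoma at 12 weeks. In MMTV-PyMT mice the viral promoter drives the polyoma middle T oncogene mainly in the mammary epithelium, so the sorted fibroblasts are the host stroma of an epithelial tumour. Each array stands for 1 cohort of mice. No source used here says whether mice were shared between arrays, so p-values measure the spread between these arrays only. Age goes with stage in every group, so the effects of age and stage cannot be told apart. The transgene is absent from the normal glands and shared by the other stages. In comparisons that include normal glands its effect cannot be told apart from those of age and stage either. Fibroblasts of carcinoma and advanced carcinoma (6 arrays) are called CAFs below and were compared with those of normal glands and hyperplasia (5 arrays).

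Collagens are secreted proteins whose alpha chains wind around each other into a helix, and a collagen type is named by the chains it holds. Fibrillar collagens (types I, II, III, V and XI, with XXIV and XXVII) form the load-bearing fibrils of the matrix. FACIT collagens (fibril-associated collagens with interrupted helices, such as types IX, XII and XIV) sit on the surface of these fibrils, the type IV chains build the network of the basement membrane, the short-chain types VIII and X form lattices, and type VI forms beaded filaments that link cells to the matrix. Fibroblasts are the main source of types I, III, V and VI in most connective tissues, whereas types II, IX, X and XI are best known from cartilage.

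Values are log2 expression as deposited, so a difference of 1 is a doubling, and only differences of the same chain between arrays are interpretable, since probe sets differ in brightness. The median of all genes was 5.64, and 22 of the 44 chains had a mean below it. The array carcinoma D4 stood apart. It was the lowest of the 6 CAF arrays in 33 of the 44 chains and the lowest of all 11 arrays in 31, and the highest CAF array in 2. The mean of 13 fibroblast markers was 9.51 in D4, against 10.64 to 11.04 in the other CAF arrays, and 10.83 to 11.27 in normal and hyperplasia arrays. The mean of 15 luminal epithelial markers was 9.64 in D4 and 8.47 to 9.32 in the other CAF arrays, against 5.89 to 7.53 in normal and hyperplasia. The mean of 12 macrophage markers was 6.16 to 8.20 in CAFs, against 4.54 to 5.97 in the other arrays. All 12 macrophage (100%) and 14 of 15 luminal markers (93.3%) passed the test as higher in CAFs, against 12% of all genes. The sort selects against the Adgre1 antigen, whereas selection against EpCAM is given for these arrays by the sample labels only. Of the 13 fibroblast markers, 2 were called as lower in CAFs (15.4%, against 12.8% of all genes) and 0 as higher. Without D4, 6 were lower (46.2%, against 12.2% of all genes), the direction of the chains called as lower in that fit. Markers of T and NK cells (3 of 8, 37.5%), B cells (3 of 5, 60%) and adipocytes (4 of 9, 44.4%, with 1 higher) also passed as lower in CAFs. These 3 lists too had the same direction as the lower chains. Their list means were 5.27 to 6.72, 5.48 to 6.77 and 5.55 to 5.99 in CAFs, against 5.95 to 8.26, 6.38 to 7.99 and 5.78 to 6.27 in the other arrays. The part of any of these cells in the collagen values was not tested, and in bulk samples fewer cells of a type and less RNA per cell cannot be told apart. In addition, a tie links normal D2 with advanced carcinoma D11. In each probe set their sum equals, within 0.000144, 2 times what the remaining 9 arrays average, and no source used here explains it. The tied arrays are thus not independent of the others, although the fits on all arrays count them as independent. Normal D2 is 1 of the 2 arrays behind each comparison with normal glands. Where D4 or the tied arrays decided a call in the comparison of CAFs, a value without them, or with a model term for the tied arrays, is given in most cases. Between stages only counts are given for such fits.

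In the comparison of CAFs with normal and hyperplasia fibroblasts, 15 of the 44 chains passed an adjusted p of 0.05 (limma, Benjamini-Hochberg over all 19938 genes). Of these, 7 were higher in CAFs, which is 15.9% of the chains, against 12% of all genes, and 8 were lower, which is 18.2%, against 12.8% of all genes. In this fit both shares lay near those of all genes, and without D4 they lay further above them. The higher chains were Col11a1, the type IX chains Col9a1, Col9a2 and Col9a3, Col12a1, Col10a1 and Col4a6. The lower chains were Col5a3, Col4a3, Col4a4, Col6a5, Col6a6, Col18a1, Col13a1 and Col23a1. All 6 CAF arrays lay above all 5 others in 5 chains (11.4%, against 7.77% of all genes) and below all of them in 3 (6.82%, against 7.14%). The median change of the 44 chains was -0.17, against -0.04 for all genes. The main chains of types I, III and VI, and Col5a1 and Col5a2, were not among those called.

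Without carcinoma D4, 24 chains were called, 10 as higher in CAFs (22.7%, against 11.4% of all genes) and 14 as lower (31.8%, against 12.2%). Of the 15 chains called with all arrays, 14 were called again and Col13a1 was not. The 10 further chains were Col8a1, Col8a2 and Col28a1, which were higher, and Col1a1, Col1a2, Col3a1, Col5a1, Col4a1, Col6a3 and Col14a1, which were lower. With a term for the tied arrays 18 chains were called, of which 13 were among the first 15, and Col12a1 (adjusted p = 0.115) and Col13a1 (adjusted p = 0.0561) were lost. The 5 gained were Col5a1, Col4a1, Col6a3, Col15a1 and Col19a1, all lower in CAFs. Without D4, D2 and D11 together, a fit added after seeing the data, 29 chains were called, Col5a2, Col4a2, Col6a1 and Col6a2 among them as lower. In all, 12 chains were called with all arrays, without D4, with the term and without D4, D2 and D11 together. For the fits with the term and without D4, D2 and D11, no share of all genes is given here. Their counts are therefore not read as particular to collagens. The plot of all 44 changes shows the fits with all arrays and without D4 side by side.

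**Figure D1:**
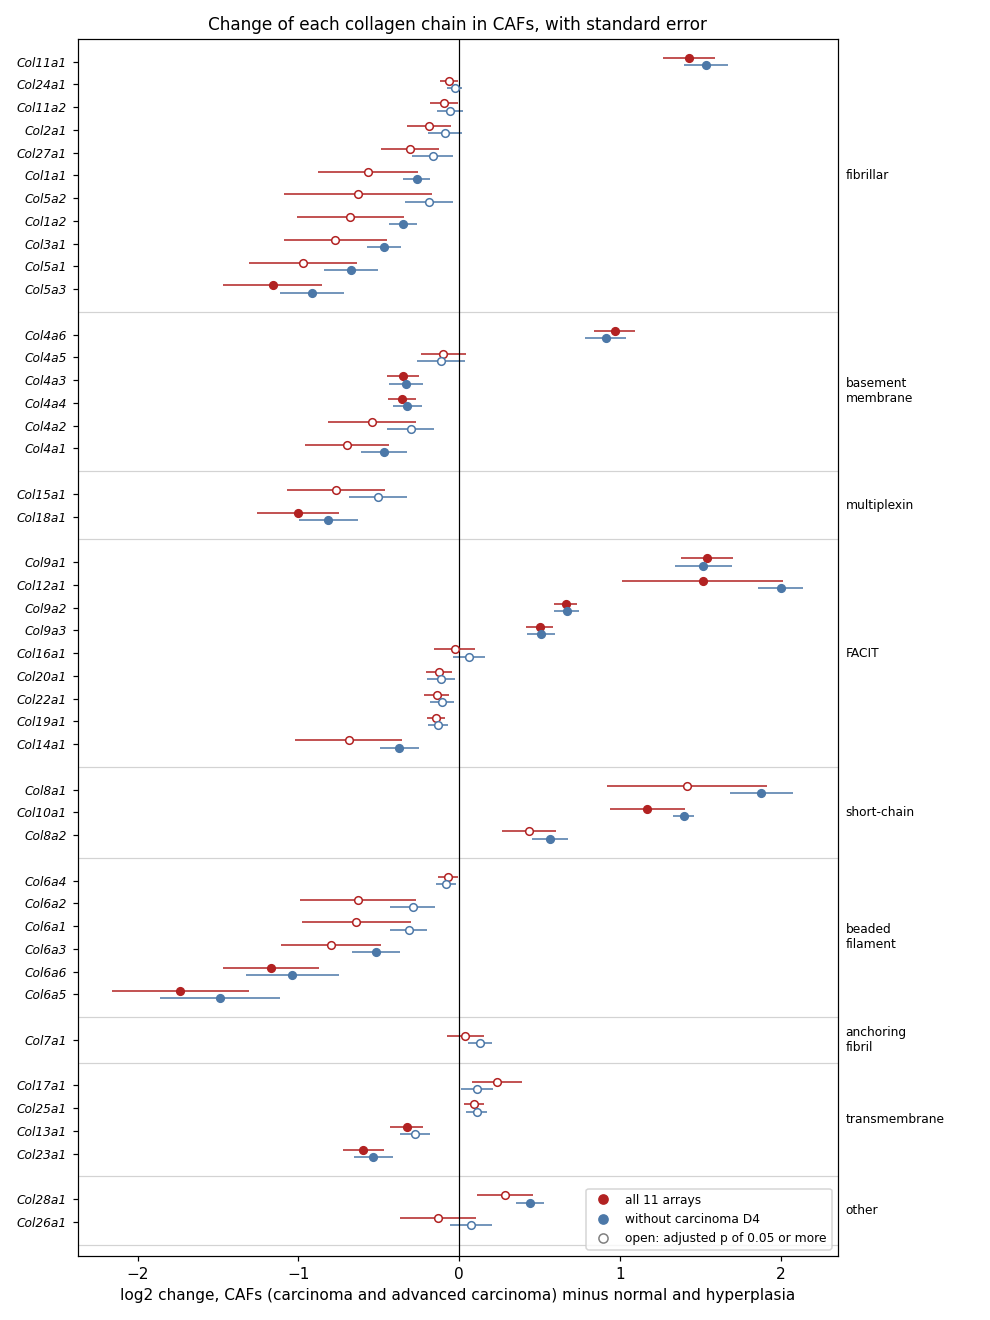
Log2 change of each of the 44 collagen chains, CAFs minus normal and hyperplasia fibroblasts, with its standard error (bars), grouped by class; red points are the fit on all 11 arrays, blue points the fit without carcinoma D4, and filled points have an adjusted p under 0.05. Col11a1, Col9a1, Col9a2, Col9a3, Col12a1, Col10a1 and Col4a6 lie to the right of 0 and are filled, and Col5a3, Col6a5, Col6a6 and Col18a1 lie furthest to the left among the filled points of the fit on all arrays.

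Chains known from cartilage (Col11a1, Col9a1, Col9a2, Col9a3 and Col10a1) made up 5 of the 7 in the higher group. Means below the median gene were found in 5 of the 7, namely Col11a1, Col9a2, Col9a3, Col10a1 and Col4a6, and in 9 of all 15 called chains. These were not tested where genes below the median level were removed. Col11a1, which helps to set the diameter of fibrils and is one of the chains of type XI collagen, measured 4.74 and 4.48 in normal glands, 4.97, 4.80 and 5.11 in hyperplasia arrays, 6.25, 5.73 and 6.02 in carcinoma arrays and 6.39, 6.64 and 6.46 in advanced carcinoma (arrays in the order of their D numbers, here and below). All 6 CAF arrays, D4 included, lay above every other array. The change was 1.43 ± 0.16 (log2, SE; 2.69-fold; adjusted p = 2.92e-04, limma) and 1.53 without D4. Its partners in cartilage type XI collagen did not pass the test. Col11a2 measured 4.46 to 4.82 (median 4.67) in CAFs, against 4.53 to 4.99 in the others (adjusted p = 0.441), and Col2a1, the cartilage fibril chain, 4.95 to 5.65 (median 5.50), against 5.34 to 5.92 (adjusted p = 0.34). The difference between Col11a1 and these chains was not tested.

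Type IX collagen, which lies on the surface of cartilage fibrils, is built from the chains of Col9a1, Col9a2 and Col9a3, and all were higher in every CAF array than in any other array. Col9a1 measured 5.21 and 4.70 in normal glands, 4.998, 5.28 and 5.33 in hyperplasia arrays, 6.45, 6.75 and 6.10 in carcinoma arrays and 6.92, 6.96 and 6.68 in advanced carcinoma. The change was 1.54 ± 0.16 (2.91-fold; adjusted p = 2.29e-04, limma). Carcinoma D4, low in most chains, was the highest carcinoma array here. Col9a2 lay at 5.31 to 5.66 (median 5.56) in CAFs, against 4.80, 4.73, 4.80, 4.99 and 5.02 in the normal and hyperplasia arrays (change 0.66 ± 0.07, adjusted p = 2.65e-04). Col9a3 lay at 5.39 to 5.57 (median 5.50), against 4.96, 4.70, 5.08, 5.20 and 5.04 (change 0.50 ± 0.08, adjusted p = 0.00181). In the comparison of CAFs, all of them passed an adjusted p of 0.05 under each alternative in which they were tested. The change of Col9a3 (1.41-fold) is, however, under the 1.5-fold that the methods ask for. In carcinoma against normal glands the calls of Col9a1, Col9a2 and Col9a3 were lost in 10, 12 and 11 alternatives and kept in 14, 11 and 12. Col9a2 and Col9a3 have means below the median gene and were therefore not tested where dim genes were removed.

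Of 7 further cartilage genes, 2 were called as higher in CAFs (28.6%, against 12% of all genes), and 3 without D4 (42.9%, against 11.4%). With all arrays they were Sox9, the chondrocyte transcription factor that luminal mammary cells also express, and Chad, which encodes the matrix protein chondroadherin. Sox9 lay at 8.14 to 9.55 in CAFs (median 8.85), against 5.92 to 7.50 in the others (change 2.01 ± 0.34, adjusted p = 0.00224), and Chad at 4.78 to 7.45 (median 6.15), against 3.68 to 4.08 (change 2.14 ± 0.40, adjusted p = 0.00358). The other 5 did not pass with all arrays: Comp changed by 0.16 (adjusted p = 0.0661), and Acan, Matn1, Matn3 and Hapln1, which encode main components of cartilage matrix, had changes of -0.05 to 0.03. The luminal and macrophage marker means given above moved with the same groups as Col11a1 and the type IX chains, and D4, with the highest luminal mean, was at CAF level in all 4 chains. The part of these cells in the values of the 4 chains was not tested.

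**Figure D2:**
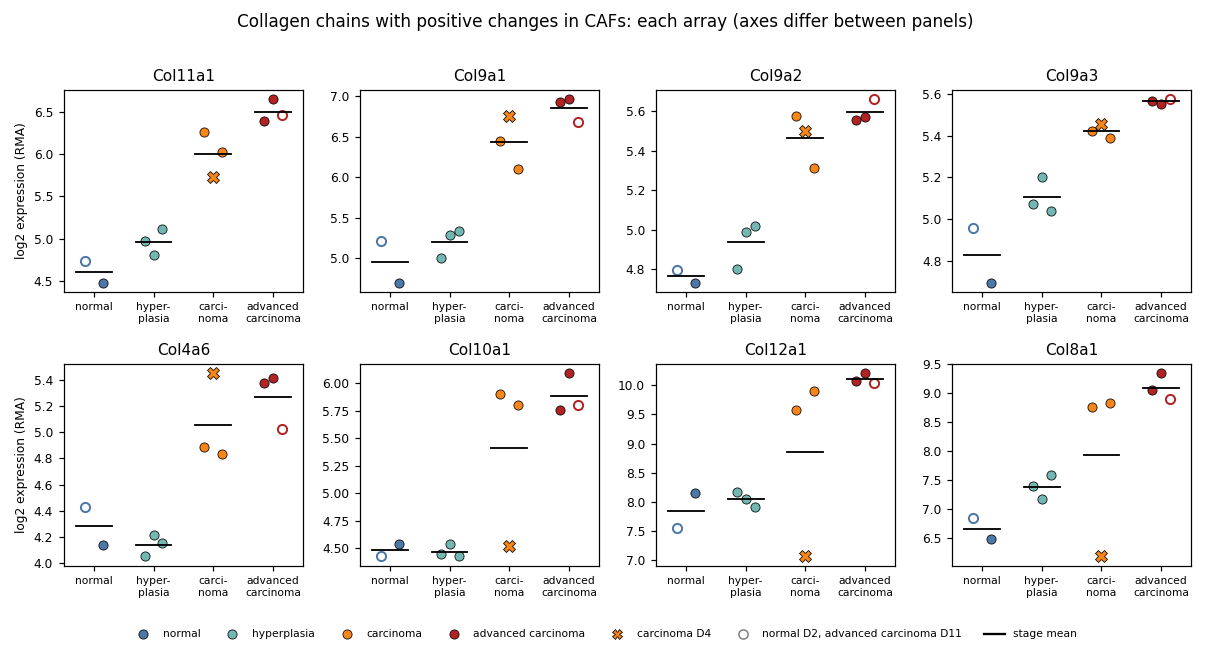
Log2 expression of Col11a1, the type IX chains, Col4a6, Col10a1, Col12a1 and Col8a1 in each of the 11 arrays by stage; lines are stage means, the cross is carcinoma D4 and open circles are the tied arrays. In Col11a1, Col9a1, Col9a2, Col9a3 and Col4a6 the cross lies with the other CAF arrays, and in Col10a1, Col12a1 and Col8a1 it lies at or below the level of normal and hyperplasia arrays.

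A second set of chains was higher in every CAF array except D4. Col10a1, the short-chain collagen of hypertrophic cartilage, measured 4.43 and 4.54 in normal glands, 4.45, 4.53 and 4.43 in hyperplasia arrays, 5.90, 4.52 and 5.80 in carcinoma arrays and 5.76, 6.09 and 5.80 in advanced carcinoma. The carcinoma value of 4.52 is that of D4 and lies within the range of normal and hyperplasia arrays. The change was 1.17 ± 0.23 (2.25-fold; adjusted p = 0.00507, limma), and 1.39 ± 0.07 without D4 (2.63-fold; adjusted p = 7.00e-06). Col12a1, a FACIT chain of dense connective tissue under tension, measured 7.54 and 8.15 in normal glands, 8.17, 8.04 and 7.92 in hyperplasia arrays, 9.58, 7.06 and 9.91 in carcinoma arrays and 10.07, 10.21 and 10.04 in advanced carcinoma. The value of D4, 7.06, was the lowest of all arrays. The change was 1.51 ± 0.50 with an adjusted p of 0.0465, and 1.997 ± 0.14 without D4 (adjusted p = 6.96e-05). The call of Col12a1 with all arrays lay close to the threshold, and it was lost when any array other than D4 was left out.

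Type VIII collagen, a lattice former of vessel walls and of the membrane under the corneal endothelium, consists of the chains of Col8a1 and Col8a2. Col8a1 lay outside the rule for named chains and was singled out after its values were seen. Col8a1 measured 6.84 and 6.48 in normal glands, 7.40, 7.18 and 7.58 in hyperplasia arrays, 8.75, 6.19 and 8.84 in carcinoma arrays and 9.05, 9.34 and 8.89 in advanced carcinoma. Apart from D4, the CAF arrays lay more than 1 unit above every other array. With all arrays the change was 1.41 ± 0.50 and did not pass the test (adjusted p = 0.0588), and without D4 it was 1.88 ± 0.20 (3.68-fold; adjusted p = 2.35e-04). Col8a2 lay at 4.14 to 5.13 (median 4.93) in CAFs, against 4.20 to 4.67 in the others, with a change of 0.43 (adjusted p = 0.0835) and of 0.57 without D4 (adjusted p = 0.00563). Both chains were also called with all arrays when each array was weighted by its quality (array weights, 0.60 for Col8a2, adjusted p = 0.00603). Between stages Col8a2 was called for advanced carcinoma against hyperplasia, where it changed by 0.65 (adjusted p = 0.0366).

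The start regions of Col10a1 and Col11a1 are printed here because these are the short-chain and the fibrillar chain called as higher in CAFs. RefSeq windows of 300 bases (GRCm38.p6, 250 bases before to 50 after an annotated start) were found for 35 of the 44 chains, 38 windows in all. They were searched on both strands for the TATA box (TATAAA), the CCAAT box, the GC box (GGGCGG), the AP-1 site (TGANTCA) and a SOX site (AACAAT), letters that do not contain one another, and matches are in capitals. Of 32851 windows of all genes 13.6% held the TATA box, 37.4% the CCAAT box, 35.7% the GC box, 7.81% the AP-1 letters and 10.7% the SOX letters. Of the 38 collagen windows 5 held the TATA box, 13 the CCAAT box, 23 the GC box, 1 the AP-1 letters and 1 the SOX letters. Col10a1 (chr10:34389731-34390030, plus strand) has a TATA box match that begins 32 bases before the start, and Col11a1 (chr3:114030290-114030589, plus strand) has a CCAAT match and 2 GC box matches.
Col10a1: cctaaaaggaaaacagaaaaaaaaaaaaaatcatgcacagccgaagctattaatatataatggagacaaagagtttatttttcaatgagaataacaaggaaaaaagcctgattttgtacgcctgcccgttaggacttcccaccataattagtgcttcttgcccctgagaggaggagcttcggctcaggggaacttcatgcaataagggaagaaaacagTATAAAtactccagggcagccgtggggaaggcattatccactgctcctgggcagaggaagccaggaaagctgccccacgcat
Col11a1: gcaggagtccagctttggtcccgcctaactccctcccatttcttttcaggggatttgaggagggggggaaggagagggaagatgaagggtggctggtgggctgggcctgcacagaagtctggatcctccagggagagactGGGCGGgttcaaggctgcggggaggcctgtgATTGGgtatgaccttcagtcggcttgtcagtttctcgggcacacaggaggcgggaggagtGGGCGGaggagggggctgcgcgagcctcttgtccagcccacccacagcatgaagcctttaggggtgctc
A match is a run of letters and was not tested as a binding site.

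The main fibrillar chains of fibroblasts were not higher in CAFs. Col1a1, which with Col1a2 forms type I collagen, the bulk of most connective tissue, measured 11.17 and 11.37 in normal glands, 11.62, 11.48 and 11.53 in hyperplasia arrays, 11.27, 9.35 and 11.15 in carcinoma arrays and 11.12, 11.22 and 11.08 in advanced carcinoma. The value of 9.35 in carcinoma is that of D4, and the other 5 CAF arrays lay at 11.08 to 11.27, overlapping with the lower part of the normal and hyperplasia range of 11.17 to 11.62. The change was -0.57 ± 0.31 with all arrays (adjusted p = 0.202, limma) and -0.27 ± 0.08 without D4 (adjusted p = 0.0392). Col1a2 lay at 9.17 to 11.24 (median 11.11) in CAFs, against 11.17 to 11.69 in the others, and 5 of the 6 CAF arrays were below every other array. It changed by -0.68 (adjusted p = 0.162), and by -0.35 without D4 (adjusted p = 0.0172). Col3a1, the chain of type III collagen in the fibrils of soft tissue, lay at 9.01 to 10.999 (median 10.81) in CAFs, against 10.97 to 11.56 in the others. It changed by -0.77 (adjusted p = 0.0998), and by -0.47 without D4 (adjusted p = 0.0109). Leaving out this single array made the changes of all 3 chains smaller in size, and their SE smaller still, so that each passed the test as lower in CAFs. These calls are against normal and hyperplasia arrays pooled. In advanced carcinoma Col1a1, Col1a2 and Col3a1 changed by -0.40, -0.50 and -0.69 against hyperplasia. Against normal glands they changed by -0.13, -0.23 and -0.33, and none of these stage changes was called with all arrays.

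Type V collagen starts and limits the growth of type I fibrils and exists in forms that do or do not hold the Col5a3 chain. Col5a3 measured 6.84 and 7.45 in normal glands, 7.86, 7.50 and 7.60 in hyperplasia arrays, 6.68, 5.06 and 6.84 in carcinoma arrays and 6.18, 6.19 and 6.80 in advanced carcinoma. Only carcinoma D10 among the CAF arrays reached the lowest of the others, normal D2. The change was -1.16 ± 0.31 (2.23-fold lower in CAFs; adjusted p = 0.0188, limma), and -0.91 without D4 (adjusted p = 0.00891). Col5a1 lay at 5.68 to 7.71 (median 7.43) in CAFs, against 7.62 to 8.55 in the others, and changed by -0.97 ± 0.34 (adjusted p = 0.0548), by -0.67 without D4 (adjusted p = 0.0163) and by -1.19 with the term for the tied arrays (adjusted p = 0.0358). Col5a2 was not called with all arrays or without D4, with 8.56 to 8.83 in the 5 CAF arrays other than D4 and 6.07 in D4, against 8.33 to 9.23 in the others (change -0.63, adjusted p = 0.34, and -0.19, adjusted p = 0.387, without D4), but was called without D4, D2 and D11 together (-0.35, adjusted p = 0.032). The other fibrillar chains, Col11a2, Col2a1, Col24a1 and Col27a1, were not called with all arrays or without D4, and Col27a1 was called as lower without the 3 arrays.

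**Figure D3:**
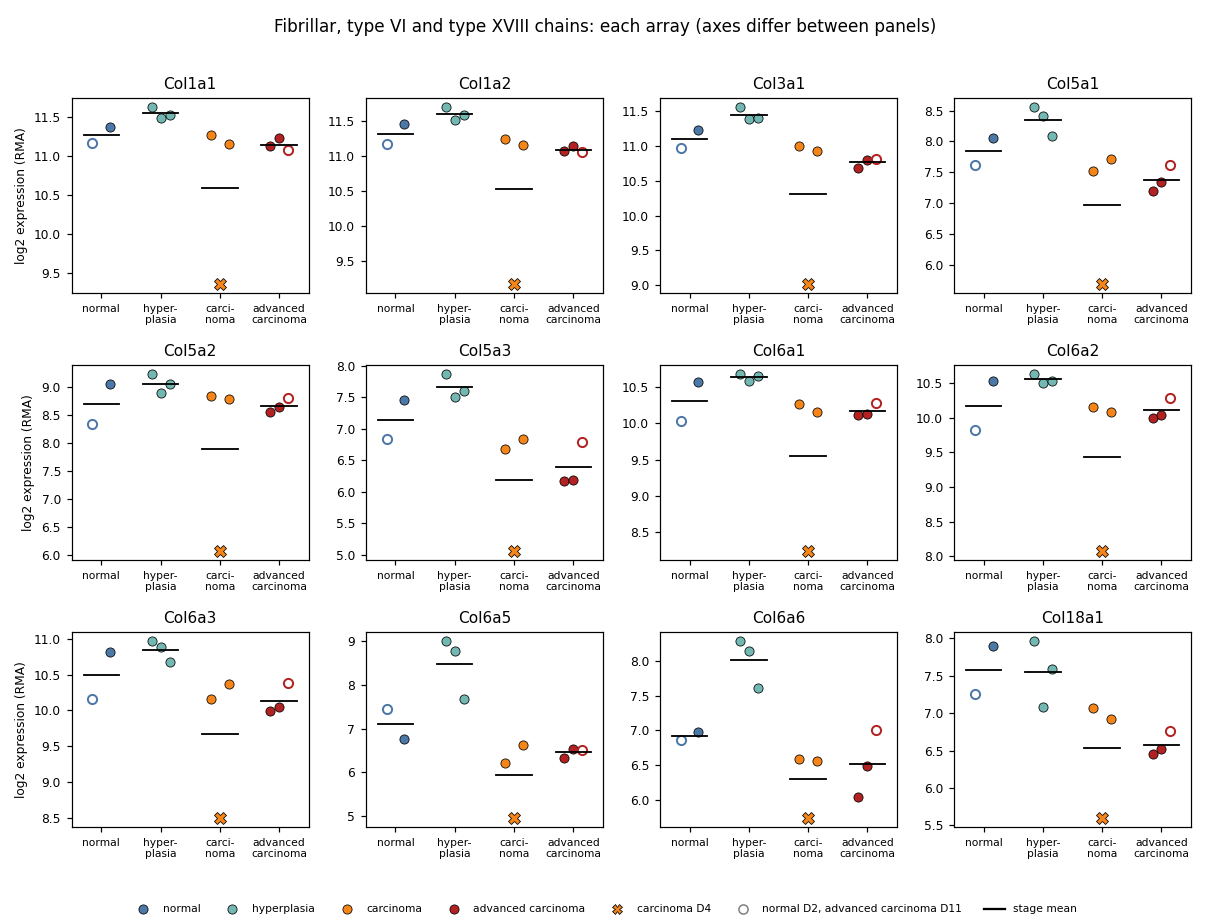
Log2 expression of fibrillar (Col1a1, Col1a2, Col3a1, Col5a1, Col5a2 and Col5a3), type VI (Col6a1, Col6a2, Col6a3, Col6a5 and Col6a6) and type XVIII (Col18a1) chains in each of the 11 arrays by stage; lines are stage means, the cross is carcinoma D4 and open circles are the tied arrays. The cross is the lowest point of every panel, and hyperplasia arrays are the highest in Col6a5 and Col6a6.

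Of the 6 type IV chains, Col4a6 was higher in CAFs, Col4a3 and Col4a4 were lower, and Col4a1, Col4a2 and Col4a5 did not pass with all arrays. The genes lie in pairs on chromosomes 8 (Col4a1 and Col4a2), 1 (Col4a3 and Col4a4) and X (Col4a5 and Col4a6), and the chains combine into different networks, of which that of Col4a1 and Col4a2 is found in nearly every basement membrane. Col4a6, which combines with Col4a5 in the membrane around epithelia and smooth muscle, measured 4.43 and 4.14 in normal glands, 4.05, 4.22 and 4.15 in hyperplasia arrays, 4.89, 5.45 and 4.84 in carcinoma arrays and 5.37, 5.42 and 5.02 in advanced carcinoma. All 6 CAF arrays were above all others, and D4 was the highest. The change was 0.97 ± 0.13 (1.95-fold; adjusted p = 6.26e-04, limma), and 0.91 without D4. The pair gene Col4a5 lay at 5.03 to 5.43 (median 5.29) in CAFs, inside the range of 4.87 to 5.71 in the others (change -0.10 ± 0.14, adjusted p = 0.639). Of 7 basal epithelial markers, Krt5, Krt14 and Trp63 were called as higher in CAFs (42.9%, against 12% of all genes). The list mean was 6.42 in D4 and 5.29 to 6.05 in the other CAF arrays. It was 5.60 and 5.73 in normal glands and 4.74, 4.88 and 5.01 in hyperplasia arrays. Carcinoma D3 and D10 and advanced carcinoma D11 (5.52, 5.29 and 5.39) lay below both normal arrays. The part of these markers' cells in the Col4a6 values was not tested.

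Col4a3 and Col4a4, known from the membrane of the kidney glomerulus, were lower in CAFs. Col4a3 measured 4.58 and 4.44 in normal glands, 4.87, 4.92 and 4.92 in hyperplasia arrays, 4.48, 4.31 and 4.49 in carcinoma arrays and 4.30, 4.27 and 4.53 in advanced carcinoma, and Col4a4 4.87 and 4.78, 5.12, 5.09 and 5.11, 4.82, 4.48 and 4.75 and 4.59, 4.45 and 4.73 in the same stages. In both, hyperplasia was the high stage, and the normal glands overlapped with the CAFs in Col4a3 and with 1 CAF array in Col4a4. The changes were -0.35 ± 0.10 (adjusted p = 0.025, limma) and -0.36 ± 0.09 (adjusted p = 0.0152). The call of Col4a3 was lost when any hyperplasia array, advanced carcinoma D8 or D9 was left out, with an adjusted p of at most 0.0635, and Col4a4 kept its call in each of these. That of Col4a3 was lost too without D4, D2 and D11 together (adjusted p = 0.0501). Col4a1 lay at 6.72 to 8.29 (median 7.96) in CAFs, against 8.06 to 8.79 in the others, and changed by -0.70 (adjusted p = 0.0738), by -0.47 without D4 (adjusted p = 0.0363) and by -0.90 with the term for the tied arrays (adjusted p = 0.0326). Col4a2 lay at 6.42 to 8.07 (median 7.75), against 7.65 to 8.40, and was not called with all arrays (change -0.54, adjusted p = 0.169) or without D4 (-0.30, adjusted p = 0.161), but was without D4, D2 and D11 together (-0.48, adjusted p = 0.0155).

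The start regions of Col4a1 and Col4a2, whose changes had the same sign, and of Col4a5 and Col4a6, of which 1 was called, are printed to show how each pair is arranged. The window of Col4a1 (chr8:11312777-11313076, minus strand) and that of Col4a2 (chr8:11312555-11312854, plus strand) share 78 bases, so that both genes start from the same stretch in opposite directions. The windows of Col4a6 (chrX:141474027-141474326, minus strand) and Col4a5 (chrX:141475169-141475468, plus strand) also face away from each other, with 842 bases between them. Matches to the same letters are in capitals. Col4a1 has 1 CCAAT and 1 GC box match, Col4a2 1 and 3, Col4a5 1 and 1, and Col4a6 a single GC box match.
Col4a1: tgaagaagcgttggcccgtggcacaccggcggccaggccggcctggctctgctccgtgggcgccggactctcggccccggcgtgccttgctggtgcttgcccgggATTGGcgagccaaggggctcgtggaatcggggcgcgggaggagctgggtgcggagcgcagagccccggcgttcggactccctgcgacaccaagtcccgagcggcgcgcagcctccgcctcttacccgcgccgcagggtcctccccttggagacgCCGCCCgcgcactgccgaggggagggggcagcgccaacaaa
Col4a2: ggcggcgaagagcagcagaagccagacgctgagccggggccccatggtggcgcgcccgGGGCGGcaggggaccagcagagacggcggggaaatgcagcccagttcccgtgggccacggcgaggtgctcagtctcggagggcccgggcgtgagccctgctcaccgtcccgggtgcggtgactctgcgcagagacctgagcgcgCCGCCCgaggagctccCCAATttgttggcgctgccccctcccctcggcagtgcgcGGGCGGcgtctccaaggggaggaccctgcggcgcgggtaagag
Col4a6: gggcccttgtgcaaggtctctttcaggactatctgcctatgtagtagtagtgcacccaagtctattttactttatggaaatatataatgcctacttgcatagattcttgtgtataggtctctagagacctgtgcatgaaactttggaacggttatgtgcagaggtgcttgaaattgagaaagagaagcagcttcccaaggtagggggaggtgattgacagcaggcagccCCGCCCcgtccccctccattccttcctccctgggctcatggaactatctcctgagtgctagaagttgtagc
Col4a5: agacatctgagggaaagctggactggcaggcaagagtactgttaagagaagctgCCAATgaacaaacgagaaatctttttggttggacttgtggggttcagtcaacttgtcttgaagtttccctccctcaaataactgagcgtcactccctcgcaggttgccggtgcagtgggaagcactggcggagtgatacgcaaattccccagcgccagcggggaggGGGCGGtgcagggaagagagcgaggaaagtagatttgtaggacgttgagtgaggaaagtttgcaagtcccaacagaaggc
No window was found for Col4a3.

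**Figure D4:**
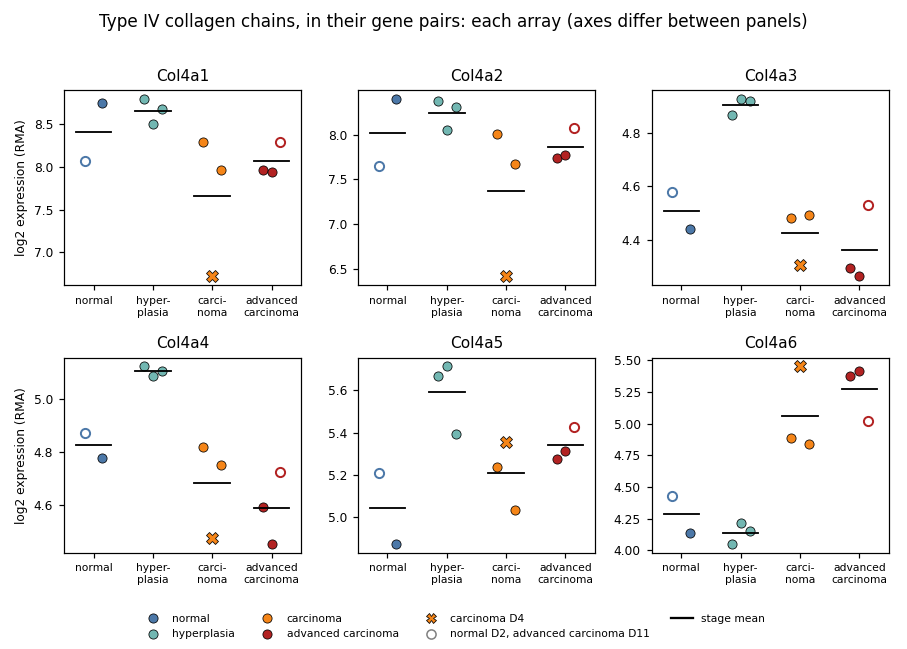
Log2 expression of the 6 type IV chains in each of the 11 arrays by stage, with gene pairs Col4a1 and Col4a2, Col4a3 and Col4a4, and Col4a5 and Col4a6; lines are stage means, the cross is carcinoma D4 and open circles are the tied arrays. The cross is the lowest point in Col4a1 and Col4a2 and the highest in Col4a6, and the hyperplasia arrays are the highest in Col4a3 and Col4a4.

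Among the type VI chains, which form beaded filaments, the chains Col6a5 and Col6a6 were lower in CAFs. Col6a5 measured 7.45 and 6.76 in normal glands, 8.99, 8.77 and 7.67 in hyperplasia arrays, 6.22, 4.96 and 6.62 in carcinoma arrays and 6.32, 6.54 and 6.51 in advanced carcinoma. Every CAF array was below every other array, and hyperplasia was the highest stage. The change was -1.73 ± 0.42 (3.33-fold lower in CAFs; adjusted p = 0.0138, limma), and -1.49 without D4 (adjusted p = 0.0171). Col6a6 measured 6.86 and 6.97 in normal glands, 8.29, 8.14 and 7.61 in hyperplasia arrays, 6.59, 5.74 and 6.56 in carcinoma arrays and 6.04, 6.49 and 7.01 in advanced carcinoma. Advanced carcinoma D11, 1 of the tied arrays, lay just above both normal arrays, and the other 5 CAF arrays lay below every normal and hyperplasia array. The change was -1.17 ± 0.30 (adjusted p = 0.0168), and -1.04 without D4 (adjusted p = 0.0269), and it was not called with array weights (adjusted p = 0.0536). These calls are against normal and hyperplasia arrays pooled. In advanced carcinoma Col6a5 and Col6a6 changed by -2.02 and -1.50 against hyperplasia, and both were called. Against normal glands they changed by -0.65 and -0.41 in advanced carcinoma and by -1.17 and -0.62 in carcinoma, and none of these changes was called. The second probe sets of both genes gave changes of the same sign, -1.24 for Col6a5 and -1.47 for Col6a6. Col6a4, Col6a5 and Col6a6 are related genes on chromosome 9, and Col6a4 was not called (4.52 to 4.70 (median 4.62) in CAFs, against 4.56 to 4.86 in the others).

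Col6a1, Col6a2 and Col6a3, which make up the common form of type VI collagen, did not pass with all arrays. Col6a3 lay at 8.50 to 10.38 (median 10.11) in CAFs, against 10.16 to 10.97 in the others, and changed by -0.80 ± 0.31 (adjusted p = 0.0836, limma). Without D4 the change was -0.52 and passed (adjusted p = 0.0293), as it did with the term for the tied arrays (-1.03, adjusted p = 0.0419). Col6a1 changed by -0.64 and Col6a2 by -0.63, or by -0.32 (adjusted p = 0.0699) and -0.29 (adjusted p = 0.16) without D4. The 5 CAF arrays other than D4 lay at 10.12 to 10.28 and 10.003 to 10.29. Normal D2, at 10.04 and 9.83, was below them in both chains. The remaining normal and hyperplasia arrays, at 10.58 to 10.68 and 10.50 to 10.63, were above every CAF array. Without D4, D2 and D11 together both passed as lower in CAFs, Col6a1 with -0.45 (adjusted p = 0.00264) and Col6a2 with -0.48 (adjusted p = 0.00218).

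The multiplexins Col15a1 and Col18a1 are basement membrane collagens whose ends release anti-angiogenic fragments, endostatin in the case of Col18a1. Col18a1 measured 7.26 and 7.89 in normal glands, 7.96, 7.09 and 7.58 in hyperplasia arrays, 7.07, 5.60 and 6.92 in carcinoma arrays and 6.45, 6.51 and 6.76 in advanced carcinoma. The groups did not overlap, although carcinoma D3 and hyperplasia D7 lay within 0.02 of each other. The change was -1.004 ± 0.26 (adjusted p = 0.0162, limma), and -0.81 without D4 (adjusted p = 0.011). Col15a1 lay at 7.35 to 9.20 (median 8.81) in CAFs, against 8.77 to 9.65 in the others, and was not called with all arrays (-0.76, adjusted p = 0.0891) or without D4 (-0.51, adjusted p = 0.0645), but was with the term for the tied arrays (-1.03, adjusted p = 0.0293). Of 10 endothelial markers, Tek and Eng were called as lower in CAFs (20%, against 12.8% of all genes). The list mean was 7.52 in D4, the lowest array in Col18a1, and 6.48 to 7.32 in the other CAF arrays, against 6.75 to 7.78 in the others. Its part in the Col18a1 values was not tested.

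Of the membrane-bound collagens, Col23a1 and Col13a1 were lower in CAFs. Col23a1 lay at 4.67 to 5.25 (median 5.02) in CAFs, against 5.39, 5.38, 5.94, 5.52 and 5.67 in the normal and hyperplasia arrays, with no overlap (change -0.60 ± 0.13, adjusted p = 0.00708, limma). Col13a1, found at cell-matrix junctions, lay at 4.69 to 5.22 (median 4.94), against 5.24, 5.48, 5.23, 5.05 and 5.43, with overlap (change -0.33 ± 0.10, adjusted p = 0.0363). Its call was lost without D4 (change -0.28), without either normal array, without hyperplasia D6 or D12 and without any advanced carcinoma array. Col17a1, a component of epithelial hemidesmosomes, was not called (0.24, adjusted p = 0.294), and its highest value, 6.18, was that of D4, against 5.35 to 5.57 in the other CAF arrays and 5.03 to 5.55 in normal and hyperplasia. Col25a1, a brain collagen, was at 4.71 to 4.95 (median 4.78) in CAFs, against 4.59 to 4.83 in the others, and was not called. Col7a1, which forms the anchoring fibrils under the epidermis, changed by 0.04 ± 0.12 (adjusted p = 0.841), a value whose sign depended on the processing.

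Among the remaining chains, Col28a1 was called as higher without D4 (change 0.44, adjusted p = 0.00658, against 0.28, adjusted p = 0.258, with all arrays) and also with array weights (0.47, adjusted p = 0.0181). Col14a1, a FACIT chain of skin and tendon, was called as lower without D4 (-0.37, adjusted p = 0.0479, against -0.69, adjusted p = 0.152). Col14a1 lay outside the rule for named chains and was singled out after its values were seen. Col16a1, Col19a1, Col20a1, Col22a1 and Col26a1 were not called with all arrays or without D4, with changes of -0.15 to -0.03 for all arrays. Of them, Col19a1 was called with the term for the tied arrays (-0.19, adjusted p = 0.0341).

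Set side by side by class and with no test, the class mean differed most between CAFs and the other arrays in the short-chain class, of the 9 classes. The mean of its 3 chains was 5.16 and 5.14 in normal glands, 5.40, 5.32 and 5.56 in hyperplasia arrays, 6.497, 4.95 and 6.43 in carcinoma arrays and 6.63, 6.85 and 6.57 in advanced carcinoma. Apart from D4 every CAF array was above every other array, and the median change of the 3 chains was 1.17 with all arrays and 1.39 without D4. The 9 FACIT chains had a mean of 5.94 in normal glands, 6.13 in hyperplasia arrays, 6.26 in carcinoma arrays and 6.53 in advanced carcinoma, and of 6.45 in carcinoma without D4. Their median change was -0.03, or 0.06 without D4, and the 4 chains called as higher were the type IX chains and Col12a1.

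The 11 fibrillar chains had a mean of 7.51 ± 0.16 (SD, n = 2) in normal glands, 7.83 ± 0.07 (n = 3) in hyperplasia arrays, 7.16 ± 0.76 (n = 3) in carcinoma arrays and 7.52 ± 0.10 (n = 3) in advanced carcinoma. Without D4 the carcinoma mean was 7.60, above that of normal glands and below that of hyperplasia. The median change in CAFs was -0.57 with all arrays and -0.19 without D4. For the 6 type IV chains it was -0.35 and -0.31, for the 6 beaded filament chains -0.72 and -0.42, and for the 2 multiplexins -0.88 and -0.66. In these 4 classes hyperplasia had the highest class mean of the 4 stages, with 6.15, 6.08 and 6.09 for type IV, against 5.80 and 5.90 in normal glands. D4 was the lowest CAF array in the means of all of these classes.

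**Figure D5:**
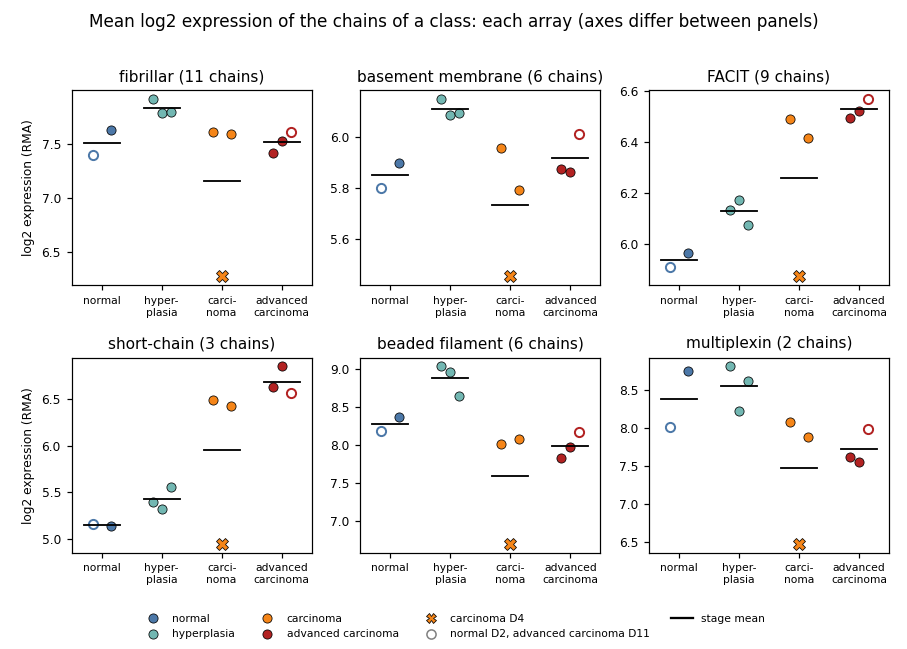
Mean log2 expression of the chains of 6 collagen classes in each of the 11 arrays by stage; lines are stage means, the cross is carcinoma D4 and open circles are the tied arrays. The cross is the lowest point of every panel, and in the FACIT and short-chain panels all other CAF arrays lie above the normal and hyperplasia arrays.

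Between single stages, 6 chains were higher in advanced carcinoma than in normal glands (13.6%, against 3.9% of all genes) and 0 were lower (against 1.71%). They were Col11a1 (1.89, adjusted p = 0.00284, limma), Col9a1 (1.90), Col9a2 (0.83), Col9a3 (0.74), Col4a6 (0.99) and Col10a1 (1.40, adjusted p = 0.0499). In carcinoma against normal glands 4 were higher (9.09%, against 0.792% of all genes), namely Col11a1 (1.39), Col9a1 (1.48), Col9a2 (0.70) and Col9a3 (0.59), and 0 were lower (against 0.145%). These 4 were also higher in carcinoma than in hyperplasia. The first comparison gave 1 chain without normal D5 and 13 without D4. The second gave 0 chains without normal D2, normal D5, hyperplasia D7, carcinoma D3, advanced carcinoma D8 or D9, 1 without advanced carcinoma D11 and 7 without D4. For these counts with an array left out no share of all genes is given, so they are not read as particular to collagens.

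In carcinoma against hyperplasia, 5 chains were higher (11.4%, against 4.89% of all genes), Col11a1 and the type IX chains with Col4a6, and 5 were lower (11.4%, against 4.37%), Col4a3 (-0.47, adjusted p = 0.0149, limma), Col4a4 (-0.42), Col6a5 (-2.54), Col6a6 (-1.72) and Col23a1 (-0.69). In advanced carcinoma against hyperplasia, 7 were higher (15.9%, against 8.52%), the same 5 with Col10a1 (1.41) and Col8a2, and 5 were lower (11.4%, against 6.01%), the same 5 as in carcinoma. Both comparisons share the hyperplasia arrays. The counts were 3 to 13 and 6 to 28 when single arrays were left out, with the highest of each without D4. The first was 3 without hyperplasia D6 and 4 without D7, and the second 6 without advanced carcinoma D8 or D9 and 7 without hyperplasia D6. None of the 44 chains passed in hyperplasia against normal glands, where 0% of all genes passed in either direction, although 7 chains (15.9%, against 2.09% of all genes) had an unadjusted p under 0.05 as higher and 0 (against 2.13%) as lower. None passed in advanced carcinoma against carcinoma, where again 0% of all genes passed, and 2 chains (4.55%, against 3.6% of all genes) had an unadjusted p under 0.05 as higher and 0 (against 2.04%) as lower. Over all 4 stages together 11 chains passed the moderated F test (25%, against 9.04% of all genes): Col11a1, Col9a1, Col9a2, Col9a3, Col10a1, Col4a3, Col4a4, Col4a6, Col6a5, Col6a6 and Col23a1. The number was 5 to 21 when single arrays were left out, 5 without hyperplasia D6 or D7 or advanced carcinoma D8 or D9, 6 without normal D5, 7 without hyperplasia D12 and 21 without D4. Shares of all genes are not given for the counts with single arrays left out, so these too are not read as particular to collagens.

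The other genes of the collagen pathway were described from 3 lists. Of 28 genes for folding and processing of procollagen, 2 were higher in CAFs (7.14%, against 12% of all genes) and 4 lower (14.3%, against 12.8%), and without D4 the numbers were 4 (14.3%, against 11.4%) and 10 (35.7%, against 12.2%). P3h2, a prolyl hydroxylase that acts mainly on basement membrane collagen, lay at 6.76 to 7.88 in CAFs (median 7.39), against 4.84 to 6.08 in the others (change 1.97 ± 0.26, adjusted p = 5.73e-04, limma). Colgalt2, which adds galactose to hydroxylysine, lay at 5.08 to 5.70 (median 5.32), against 6.25 to 7.39 (change -1.38, adjusted p = 9.43e-04), and Tll1, a procollagen C-proteinase, at 4.69 to 5.25 (median 4.93), against 5.67 to 6.57 (change -1.15, adjusted p = 0.00126). Adamts3, which removes N-propeptides, was the other higher gene (0.72), and the proteinase enhancer Pcolce2 (-1.24) and Adamts14 (-1.28) the other lower ones. The collagen chaperone Serpinh1 (-0.57, adjusted p = 0.114) was not called with all arrays. The list mean was 7.13 in D4 and 8.12 to 8.52 in the other CAF arrays, against 8.22 to 8.70 in normal and hyperplasia.

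Of 10 collagen receptors, 4 were higher (40%, against 12% of all genes) and 1 lower in CAFs (10%, against 12.8%). Ddr1, a receptor tyrosine kinase for collagen that epithelia express, lay at 6.94 to 7.75 in CAFs (median 7.41), against 6.11 to 6.498 in the others (change 1.08 ± 0.15, adjusted p = 7.29e-04, limma), Adgrg1, a receptor for type III collagen, at 7.43 to 8.92 (median 7.99), against 6.12 to 7.41 (change 1.27, adjusted p = 0.00886), and the integrin subunit Itga2 at 6.85 to 7.44 (median 7.14), against 7.64 to 8.42 (change -0.81, adjusted p = 0.00532). Ddr2, the counterpart of Ddr1 in mesenchymal cells, was not called (-0.74, adjusted p = 0.103). Of 6 collagenases and related proteases, Mmp13 and Mmp9 were higher (33.3%, against 12% of all genes) and none was lower (against 12.8%). Without D4, 3 were lower (50%, against 12.2% of all genes). Mmp13, an interstitial collagenase, lay at 5.18 to 8.45 in CAFs (median 6.91), against 3.36 to 3.90 in the others (change 3.23 ± 0.54, adjusted p = 0.00197), and Mmp9 at 4.42 to 4.995 (median 4.70), against 4.05 to 4.56 (change 0.46, adjusted p = 0.0191). Mmp14, the third by p, changed by -0.66 (adjusted p = 0.0874), and was called as lower without D4 (-0.41, adjusted p = 0.0109). Ddr1, Mmp9 and Lair1 are expressed by epithelial or myeloid cells, whose markers moved in the same direction, and the part of those cells in these values was not tested.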

How the data were processed

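The authors hybridised the arrays and deposited log2 values per probe set, which they obtained by robust multi-average (RMA) normalisation and summary in Partek Genomics Suite 6.5. Image files were left aside. Platform annotation paired 21789 of 35399 probe sets with 1 symbol, 1621 with several and 11989 with none. Where several probe sets share a gene (999 genes), the one with the highest mean stands for it.

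From these values, CAFs were compared with the other arrays in a fit of 2 groups, and stages in a fit of 4, with limma 3.58.1 in R 4.3.3, and p-values were adjusted by Benjamini-Hochberg over all genes. In simulated data 83% of 1.5-fold and 92% of 2-fold changes were recovered in the comparison of CAFs, 49% and 77% in advanced carcinoma against normal glands, and 45% and 75% in carcinoma against normal glands. The simulation drew independent noise with the spread within stages. It held no array like D4, no tied arrays and no stage differences inside the 2 groups, so recovery in these data can be lower. Replicates are cohorts of mice, and their number limits the precision. The named chains were those past the threshold in any comparison, the one with the smallest p in each class, and Col1a1, Col1a2, Col3a1, Col5a1, Col5a2, Col4a1, Col4a2 and Col6a1 to Col6a3, and of each list the 3 genes with the smallest p. The members and lists were chosen with earlier results of these data known. Alternatives were other normalisations, filters, probe set rules and fits, and each array left out. The fit without D4, D2 and D11 was added after seeing the data.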

Additional observations from a re-analysis of the deposited data

Results flagged for a closer look

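Of 72 sets of values (named chains and class means, each within the 6 CAF arrays and within the 5 normal and hyperplasia arrays), 23 held an array whose gap to its nearest neighbour took up more of the range than Dixon's critical value allows, where chance gives about 1 in 20. In 21 of them the array was carcinoma D4, lowest of the CAF arrays. Its log2 value and that of the next array were, by chain, Col10a1 (4.52, next 5.76), Col12a1 (7.06, next 9.58), Col1a1 (9.35, next 11.08), Col1a2 (9.17, next 11.06), Col28a1 (4.45, next 5.23), Col3a1 (9.01, next 10.68), Col4a1 (6.72, next 7.94), Col4a2 (6.42, next 7.67), Col5a1 (5.68, next 7.19), Col5a2 (6.07, next 8.56), Col5a3 (5.06, next 6.18), Col6a1 (8.24, next 10.12), Col6a2 (8.07, next 10.003), Col6a3 (8.50, next 9.98) and Col6a5 (4.96, next 6.22). The means of classes with D4 apart were fibrillar chains at 6.28 (next 7.42), multiplexin chains at 6.47 (next 7.55), FACIT chains at 5.87 (next 6.42), short-chain chains at 4.95 (next 6.43), beaded filament chains at 6.70 (next 7.83) and other chains at 4.55 (next 5.52). The chains share 1 array, so these are not separate events. Col11a1, Col9a1, Col9a2, Col9a3 and Col4a6 did not show D4 apart.

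Normal D2 stood apart as the lowest of the 5 normal and hyperplasia arrays in Col6a1 (10.04, next 10.58) and Col6a2 (9.83, next 10.50). It is 1 of the tied arrays. Advanced carcinoma and carcinoma did not differ in any chain past the threshold, so no difference of effects between these stages was tested further.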

How the results depend on the processing

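The count of 15 chains for CAFs was 13 to 19 under alternative normalisations, probe set rules and fits but 8 with genes below the median level removed, which leaves 22 chains to test, 12 to 24 with single arrays left out and 29 without D4, D2 and D11. For advanced carcinoma against normal glands the 6 became 1 with dim genes removed, 14 with array weights, 12 on these 2 stages only, 11 at the threshold of the methods (unadjusted p under 0.05 and fold over 1.5), 3 without D2 and D11, 19 without the 3 arrays and 1 to 13 with single arrays left out. For carcinoma against normal glands the 4 became 1, 8, 0, 8, 0 and 7 in the same order, 0 with one-way ANOVA contrasts, 2 with the term for the tied arrays and 0 to 7 with single arrays left out. Carcinoma against hyperplasia (10) gave 3 with dim genes removed, 16 with array weights, 0 on the 2 stages only, 19 at the threshold of the methods, 20 without the 3 arrays and 3 to 13 with single arrays left out. Advanced carcinoma against hyperplasia (12) gave 4 with dim genes removed, 23 with array weights, 28 on the 2 stages only, 29 without the 3 arrays and 6 to 28 with single arrays left out. Hyperplasia against normal glands gave 2 at the threshold of the methods, and advanced carcinoma against carcinoma 1 with array weights and 1 without the 3 arrays. The F test (11) gave 3 with dim genes removed, 4 with one-way ANOVA contrasts, 21 with array weights, 7 with the term, 7 without D2 and D11, 26 without the 3 arrays and 5 to 21 with single arrays left out. The change of Col7a1 was -0.054 with median-centred arrays and -0.047 with quantile normalisation, and ranged from -0.0084 to 0.130 with single arrays left out. Class medians were held against the spread within groups without D4. The fibrillar median change (-0.57) ranged from -0.65 to -0.19 with single arrays left out, with -0.19 without D4, and was -0.34 without the 3 arrays. The FACIT median (-0.03) ranged from -0.0992 to 0.0596, the highest without D4, and was -0.12 with median-centred arrays and -0.15 without D2 and D11. The short-chain median (1.17) ranged from 1.08 to 1.39 and was 1.399 without the 3 arrays. The type IV median moved by less than this spread in each. Shares of all genes are not given beside the counts of this section, and the cause of these differences was not tested.

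The precision is limited by the number of arrays. No alternative separates age from stage.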
